A study of Homo sapiens with 6 samples.

Results

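Potassium channels, voltage-gated calcium channels and the TRPC, TRPM and TRPV cation channels were examined as 41 genes of cultured colon fibroblasts. They were chosen by symbol and by measured values. A member was a protein-coding gene of these families with at least 10 counts in each of 3 or more of the 6 libraries, whatever the group. Of 60663 genes in the table, 134 carried a symbol of these families, and 41 of these passed the minimum. The other 93 did not, 36 of them with a count of 0 in every library.

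The cells were CCD18Co, an established line of normal human colon fibroblasts, and all libraries came from this 1 line. They were transfected by lipofection either with an siRNA pool against *LTBP2* (siLTBP2), a protein of the extracellular matrix, or with a pool without a target (siNT). RNA was taken 48 h after transfection, with 3 libraries per group. No label says whether the libraries came from separate cultures, so p-values measure the spread between these libraries, which may be technical. The comparison asks which channel genes differ in level when *LTBP2* is silenced.

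Ion channels are membrane proteins that open a pore for chosen ions. Potassium channels let potassium leave the cell and hold the membrane potential negative, which sets the electrical drive for calcium entry. Voltage-gated calcium channels open on depolarization, and their beta and alpha2delta subunits control how much of the pore subunit reaches the membrane. TRP channels are cation channels opened by lipids, stretch, heat, oxidants or internal calcium, and in fibroblasts, which fire no action potentials, they are among the usual routes of calcium entry. Auxiliary potassium channel subunits carry no pore and change the gating or the transport of those that do.

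The libraries held between 44663424 and 53576899 counts on genes. *LTBP2* stood at 23.1 ± 1.89 CPM (counts scaled to the size of the library after TMM normalization, SD, n = 3) in siNT and at 7.03 ± 1.39 CPM (SD, n = 3) in siLTBP2, with a log2 fold change of -1.72. Fibroblast markers were abundant, and all 11 listed were tested, with *PDGFRB* lower (log2 fold change -0.60) and the other 10 not called. Of the smooth muscle markers, *MYH11*, *DES* and *CNN1* had at most 5 counts in any library, *ACTG2* and *SMTN* were higher in siLTBP2, and *LMOD1* and *SYNPO2* were lower. The summed smooth muscle list ranged from 245.7 to 273.4 CPM in siNT and from 397.5 to 431.7 CPM in siLTBP2. Epithelial markers summed to at most 0.338 CPM and leukocyte markers to at most 0.486 CPM. The neuron and glia markers *ELAVL4*, *S100B* and *SOX10* were at 0, while *SNAP25* and *SYP* had adjusted p-values of 0.063 and 0.11 (edgeR). Of the endothelial markers, *TEK* was at 74.2 CPM in siNT and *VWF* at 1.58 CPM, with adjusted p-values of 0.48 and 0.066 (edgeR). Of 10 proliferation genes, 8 were higher in siLTBP2, where 9.76% of all genes tested were higher. The sum of the 10 lay between 1357 and 1508 CPM in siNT and between 1961 and 2040 CPM in siLTBP2. The part of these shifts in the results that follow was not tested. In bulk RNA, fewer cells of a type and less RNA per cell cannot be told apart.

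Among the 41 channel genes, 15 passed an adjusted p of 0.05 (edgeR's quasi-likelihood test, two-sided, Benjamini-Hochberg over the 16920 genes tested). This was 36.6% of the members, against 19.3% of all genes tested. With the replicate number as a block, 24 were called, the further 9 all higher. Of the 16920 genes tested, 6131 were called with this block, against 3261 without it. The 5 higher members were *KCNK2*, *KCNU1*, *KCNN4*, *TRPV2* and *KCNMA1*, where 9.76% of all genes were higher. There were 10 lower members, where 9.51% of all genes were lower, and those described here are *KCNK12*, *KCNAB2*, *KCNE1B*, *KCNE1*, *KCNK1*, *KCNF1*, *CACNB1*, *CACNB3* and *TRPM4*. The groups did not overlap, with all 3 siLTBP2 values on 1 side of the siNT values, in 18 of the 41 members, or 43.9%, and in 37% of all genes. The members' median log2 fold change was 0.0061, against -0.0056 over all genes tested.

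By the study's stricter rule, an adjusted p below 0.01 with a change of more than 2-fold, 7 members were deregulated. All genes tested gave 2.57% by this rule, with 1.29% higher and 1.27% lower. The 3 deregulated upward were *KCNK2*, *KCNU1* and *KCNN4*, and the 4 deregulated downward were *KCNK12*, *KCNAB2*, *KCNE1B* and *KCNE1*. Of these 7, 3 are auxiliary subunits. *KCNE1* and *KCNE1B* among them are near-identical copies, so the same signal may be counted more than once, here and among the called lower members.

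The minimum on counts bears on some of these. *KCNU1* reached 10 counts in siLTBP2 libraries only, and *KCNK2*, *KCNH3* and *CACNB4* reached it in all 3 libraries of 1 group but not of the other. Without these 4, 37 members remained, of which 3 were higher and 10 lower, with 1 deregulated upward and 4 downward. Just inside the minimum lay *KCNH3* and *CACNB4*, with 17 and 18 counts in their third-highest library. Just outside lay *KCNMB4*, a beta subunit of the large-conductance channel, with 8 counts there, and then *CACNA2D3* and *KCNH5* with 7 each.

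**Figure D1:**
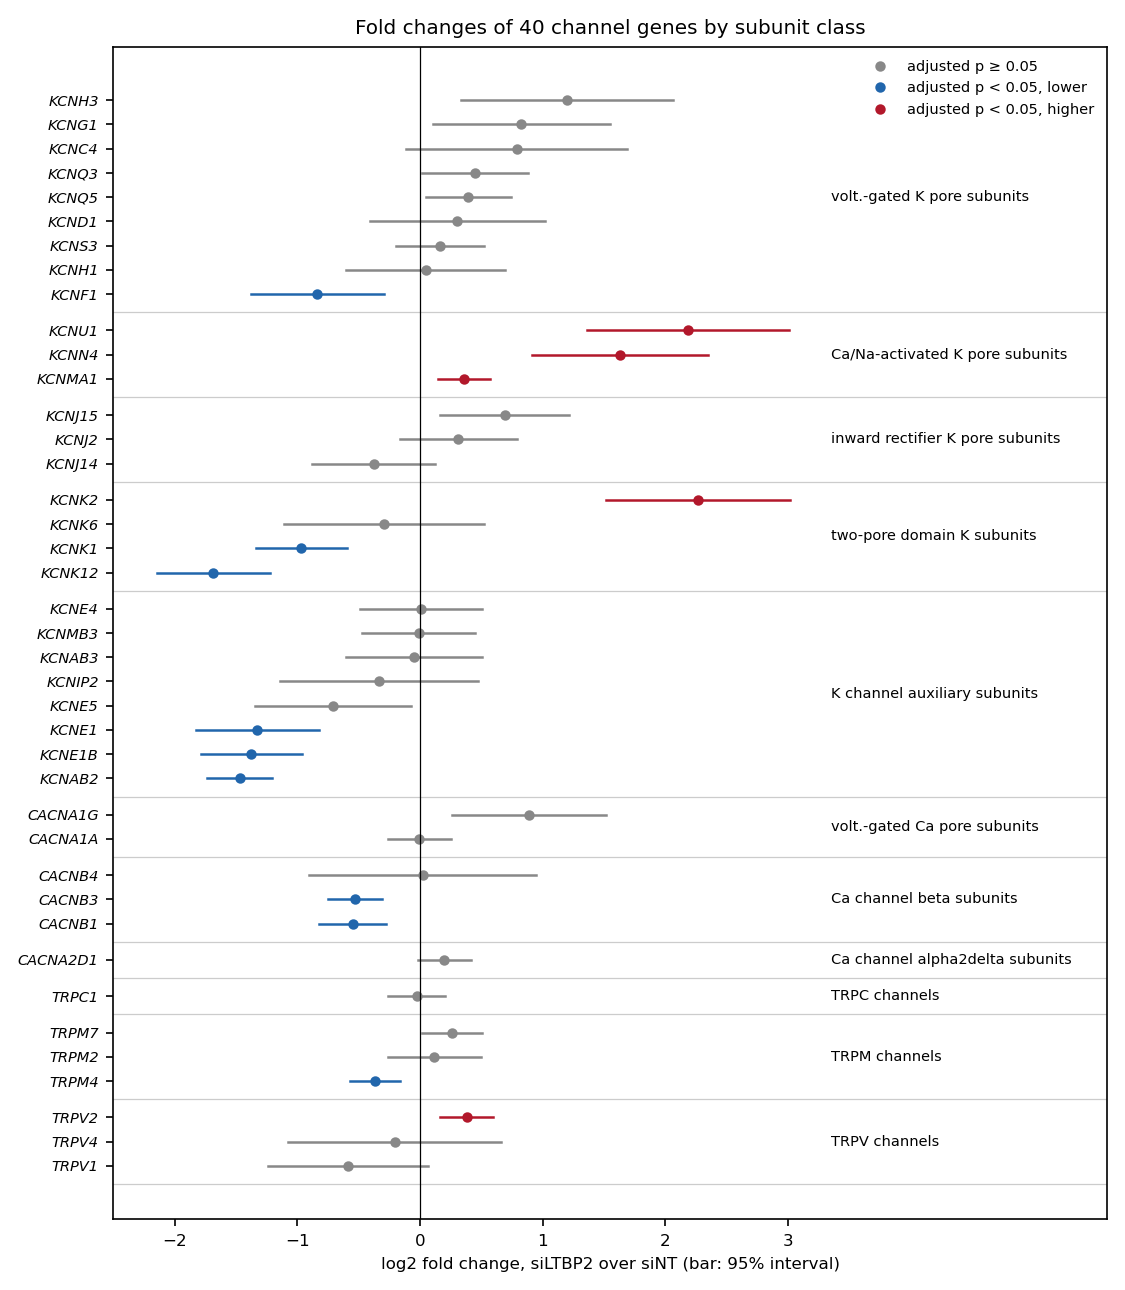
Log2 fold changes of 40 of the 41 channel genes, siLTBP2 over siNT, in 11 subunit classes, where points are estimates, bars are 95% intervals and colour marks an adjusted p below 0.05. The 3 members of the calcium- or sodium-activated potassium class lie above 0, with the pH-sensitive *KCNU1* a member through siLTBP2 counts alone. The 5 called auxiliary subunits, *KCNAB2*, *KCNE1*, *KCNE1B*, *CACNB1* and *CACNB3*, lie below 0.

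Split by class, 29 members belong to pore subunit classes and 12 are auxiliary subunits. The 29 include subunits that modify partners, such as *KCNF1* and *KCNS3*, so the split is by gene family and not strictly by role. Of the auxiliary subunits, 5 were lower, where 9.51% of all genes were lower, and 0 higher, with a median log2 fold change of -0.43. The 5 include *KCNE1* and *KCNE1B*, near-identical copies whose reads may not be divided correctly. At an unadjusted p below 0.05 the count of higher auxiliary subunits was also 0, as it was under the likelihood ratio test and under DESeq2, and it was 1 (*CACNA2D1*) with the replicate number as a block. Of the 29 members in pore subunit classes, 5 were higher and 5 lower, *KCNF1* among the lower, with a median of 0.26. Neither split was tested against the other genes.

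Levels per kilobase depended on the transcript length used. *KCNMA1*, the pore subunit of the large-conductance potassium channel that opens with calcium and depolarization, stood at 31.0 ± 2.99 RPKM in siNT (SD, n = 3), counted per kilobase of its canonical transcript. By this length it held between 62.9% and 70.4% of the summed RPKM of the potassium pore subunits in each of the 6 libraries. Over the length of all annotated exons, 39.4 kb against 6.26 kb, an alternative added after the data were seen, it was at 4.92 RPKM and held between 27% and 33.8%, and *TRPV2* was the highest member at 25 RPKM. On the canonical lengths, next in RPKM in siNT came *TRPV2* at 30.4 ± 3.63, *CACNB3* at 22.9 ± 0.53, *CACNA2D1* at 16.5 ± 1.79 and *TRPM7* at 11 ± 1.15. *KCNAB2*, *TRPM4*, *TRPC1*, *KCNS3* and *CACNA1A* followed at 8.28, 7.42, 5.38, 5.16 and 3.70 RPKM. The levels of *KCNMA1* and *TRPV2* did not differ beyond their spread, and neither did those of *TRPC1* and *KCNS3*. On these lengths 17 of the 41 members were above 1 RPKM in siNT, and the lowest, *KCNU1*, was at 0.029 RPKM.

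The count minimum left out several channel genes known from smooth muscle. *CACNA1C*, the L-type pore subunit of smooth and cardiac muscle, had 2, 0 and 6 counts in siNT and 1, 1 and 2 in siLTBP2. *TRPC6* had none in any library, and *TRPC4* had 1 count in 1 siNT library. *KCNMB1*, the beta subunit that accompanies *KCNMA1* in smooth muscle, had 1 count in all 6 libraries together. Of 10 voltage-gated calcium pore genes in the table, only *CACNA1A* and *CACNA1G* were members.

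**Figure D2:**
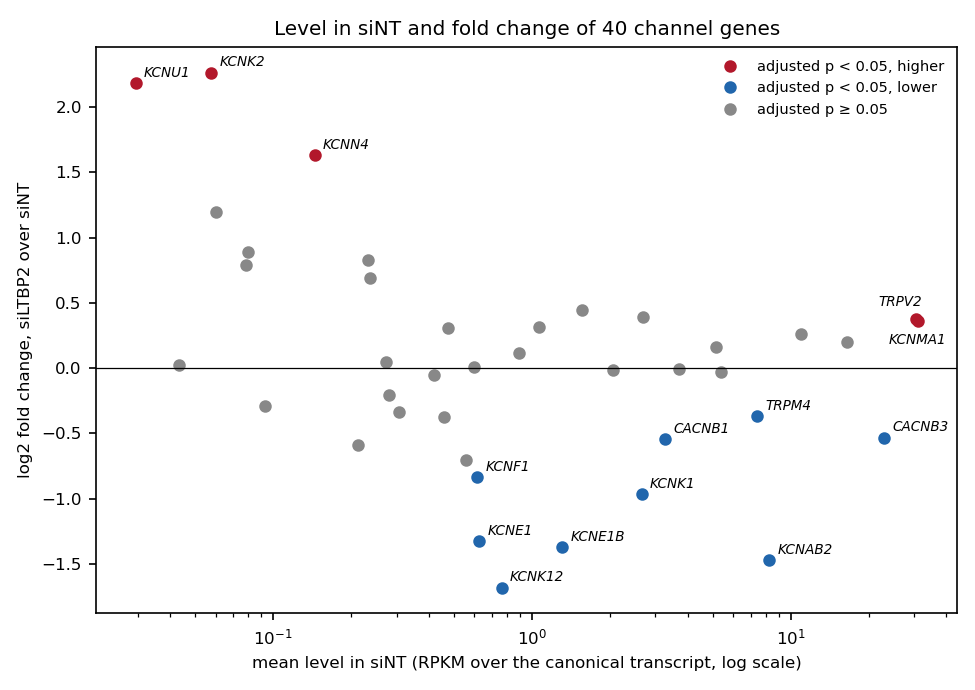
Mean level of 40 of the 41 members in siNT (RPKM over the canonical transcript, log scale) against the log2 fold change, siLTBP2 over siNT, with called members named and coloured. *KCNMA1* and *TRPV2* lie at the right with log2 fold changes of 0.36 and 0.38, and *KCNU1*, *KCNK2* and *KCNN4*, at most at 0.145 RPKM in siNT, have the 3 highest fold changes (the siNT values enter both axes).

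The calcium- or sodium-activated class of potassium pore subunits had 3 members of 8 genes, and all 3 were higher, *KCNU1* among them only through the count minimum being met in siLTBP2. *KCNMA1* (ENSG00000156113, chr10:76869601-77638369, minus strand of GRCh38, 28 exons) stood at 216, 182 and 184 CPM in siNT replicates 1 to 3 and at 255, 259 and 233 CPM in siLTBP2. Every siLTBP2 library was above every siNT library, although the lowest siLTBP2 value was close to the highest siNT value. The log2 fold change was 0.36 (standard error, SE, 0.10, adjusted p = 0.024, edgeR), a rise of 1.28 times. It lost the call in 4 of the 6 fits that left out a library, with adjusted p-values of 0.074 without siNT replicate 2, 0.088 without siNT replicate 3, 0.075 without siLTBP2 replicate 1 and 0.11 without siLTBP2 replicate 2. Its fold change stayed positive in each of these fits.

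*KCNN4* (ENSG00000104783, chr19:43766533-43780976, minus strand), the intermediate-conductance calcium-activated channel known from lymphocytes, red cells and proliferating fibroblasts, was a gene of low level that rose 3.1-fold. Its libraries held 11, 10 and 22 counts in siNT and 43, 46 and 38 counts in siLTBP2. In TMM-normalized CPM these were 0.238, 0.203 and 0.408 in siNT and 0.987, 0.973 and 0.721 in siLTBP2. All siLTBP2 values were above all siNT values, and the log2 fold change was 1.63 (SE 0.32, adjusted p = 0.006, edgeR).

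*KCNU1* (ENSG00000215262) was placed in this class as a gene of the same family as *KCNMA1*, but it is a pH-sensitive channel of sperm. It had 6, 6 and 4 counts in siNT and 25, 24 and 22 counts in siLTBP2, a log2 fold change of 2.19 (SE 0.37, adjusted p = 0.0026, edgeR). At these counts it passed the minimum through siLTBP2 alone. DESeq2 gave it no adjusted p, so that only *KCNMA1* and *KCNN4* of this class were called there. The other 5 genes of the class, *KCNN3* among them, were under the minimum.

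The promoter windows of *KCNMA1* and *KCNN4* are printed because both genes rose, and that of *KCNK1*, described next, because it fell. Each holds 250 bases before a transcription start and 50 after, on the gene's strand, from RefSeq on GRCh38.p14. They lie at chr10:77637759-77638058 (minus strand), chr19:43780924-43781223 (minus strand) and chr1:233613856-233614155 (plus strand). Capitals mark 6 motifs searched on both strands, the TATA box (TATAAA), the GC box (GGGCGG), the AP-1 site (TGAGTCA), the TEAD site (GGAATG), the cyclic AMP response element (TGACGTCA) and the NFAT core (GGAAAA).
KCNMA1: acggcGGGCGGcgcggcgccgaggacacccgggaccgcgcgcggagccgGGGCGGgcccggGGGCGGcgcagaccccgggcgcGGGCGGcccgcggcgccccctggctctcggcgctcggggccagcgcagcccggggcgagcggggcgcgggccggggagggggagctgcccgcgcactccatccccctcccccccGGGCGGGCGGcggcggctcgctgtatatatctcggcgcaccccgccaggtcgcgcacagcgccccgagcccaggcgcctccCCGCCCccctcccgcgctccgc
KCNN4: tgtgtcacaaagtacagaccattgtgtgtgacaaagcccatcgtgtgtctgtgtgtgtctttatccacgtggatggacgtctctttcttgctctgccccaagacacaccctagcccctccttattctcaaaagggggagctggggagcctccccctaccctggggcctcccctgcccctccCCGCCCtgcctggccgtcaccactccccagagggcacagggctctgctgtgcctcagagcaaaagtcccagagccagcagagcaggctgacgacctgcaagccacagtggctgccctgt
KCNK1: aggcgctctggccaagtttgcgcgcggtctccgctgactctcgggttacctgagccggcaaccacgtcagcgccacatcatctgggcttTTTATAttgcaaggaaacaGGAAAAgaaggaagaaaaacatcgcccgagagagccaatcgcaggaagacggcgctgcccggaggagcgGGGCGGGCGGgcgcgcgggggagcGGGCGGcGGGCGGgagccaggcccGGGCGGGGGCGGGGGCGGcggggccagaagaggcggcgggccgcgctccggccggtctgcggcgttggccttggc
In these 3 windows the capitals of *KCNMA1* and *KCNN4* are GC boxes, and those of *KCNK1* are a TATA box, an NFAT core and GC boxes. A second window of *KCNMA1*, at chr10:77350712-77351011, holds AP-1 sites and no GC box. RefSeq windows were matched for 29 of the 41 members and for 10 of the 15 called ones, several with more than 1 window. Counted by window, a GC box was in 29 of the members' 51 windows, or 56.9%, and in 45% of all 35116 windows. The NFAT core was in 21.6% of the members' windows against 24% of all, the TEAD site in 9.8% against 14%, the TATA box in 5.9% against 11.5% and the AP-1 site in 5.9% against 4.9%. Of the called members, *KCNMA1* was the only carrier of an AP-1 site, and *KCNF1* of the cyclic AMP response element, which 1.8% of all windows held. Overlapping matches were counted once per window, and a match here is of letters only.

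Of the 4 tandem-pore-domain potassium channels, which leak potassium at rest, *KCNK12* and *KCNK1* were lower and *KCNK2* was higher, the last from counts near the minimum in siNT, so that its membership rests on siLTBP2. *KCNK2* (ENSG00000082482, chr1:215005775-215237090, plus strand), a channel opened by membrane stretch and lipids, had 14, 8 and 11 counts in siNT and 38, 43 and 75 counts in siLTBP2. This was 0.223 ± 0.0722 CPM in siNT against 1.07 ± 0.308 CPM in siLTBP2 (SD, n = 3), and the log2 fold change was 2.26 (SE 0.34, adjusted p = 0.0013, edgeR). The third siLTBP2 library was the highest, and the groups did not overlap.

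*KCNK12* (ENSG00000184261, chr2:47509290-47570985, minus strand), a member of the halothane-inhibited branch, fell the most among the members. It stood at 13.0, 10.7 and 7.46 CPM in siNT and at 3.83, 2.98 and 2.88 CPM in siLTBP2. The siNT libraries spread widely, yet the lowest of them was above every siLTBP2 library. Its log2 fold change was -1.68 (SE 0.21, adjusted p = 0.00045, edgeR).

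*KCNK1* (ENSG00000135750, chr1:233614106-233672514, plus strand), a weakly rectifying channel of the same fold, was at 5.99, 4.90 and 5.55 CPM in siNT and at 2.87, 3.19 and 2.35 CPM in siLTBP2. No siLTBP2 library came near the siNT range, and the log2 fold change was -0.97 (SE 0.17, adjusted p = 0.003, edgeR). The last of the 4, *KCNK6*, was at 0.53 CPM in siNT against 0.439 CPM in siLTBP2 and was not called. Summed per kilobase, the 4 genes lay between 3.30 and 4.04 RPKM in siNT and between 1.76 and 2.08 RPKM in siLTBP2. Most of this was *KCNK1*, at 2.66 RPKM in siNT against 1.36 RPKM in siLTBP2.

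**Figure D3:**
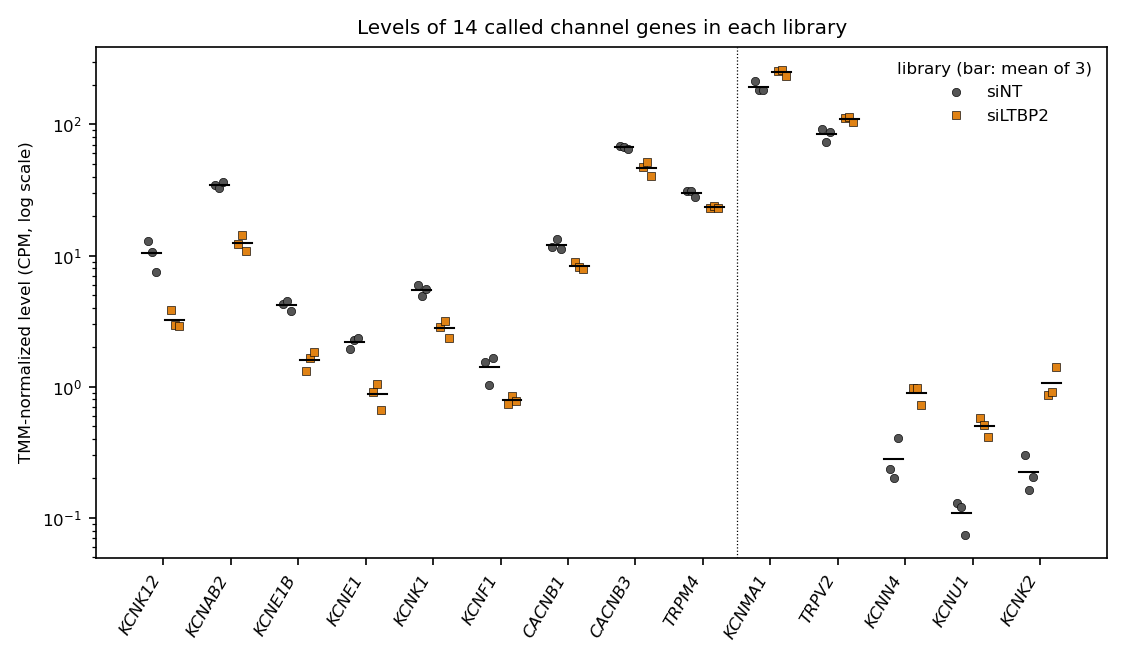
TMM-normalized level (CPM, log scale) of 14 of the 15 called members in each of the 6 libraries, ordered by fold change, with siNT as circles, siLTBP2 as squares and bars at the means of 3. The groups do not overlap in any of the 14, which were chosen by their adjusted p on these same values. Over all genes tested, 37% do not overlap. *KCNMA1* and *TRPV2* are at 73.3 CPM or above in every library while *KCNN4*, *KCNU1* and *KCNK2* are at most at 1.42 CPM.

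Voltage-gated potassium pore subunits had 9 members of 40 genes, and 8 of the 9 had a positive fold change, as did 8338 of the 16920 genes tested. None of the 8 passed the test, with 4 of them at an unadjusted p below 0.05 (edgeR), 1 called higher by the likelihood ratio test and 0 by DESeq2. With the replicate number as a block, *KCNG1* (adjusted p = 0.027), *KCNH3* (0.012), *KCNQ3* (9.26e-05) and *KCNQ5* (0.00097) were higher (edgeR). This block called 6131 of the 16920 genes tested, against 3261 without it. The one that did pass was *KCNF1* (ENSG00000162975, chr2:10911934-10914225, plus strand, 1 exon), a subunit that forms no channel alone and modifies partners, and it was lower. It stood at 1.54, 1.03 and 1.65 CPM in siNT and at 0.734, 0.846 and 0.778 CPM in siLTBP2, a log2 fold change of -0.84 (SE 0.25, adjusted p = 0.037, edgeR). Without siNT replicate 2, the lowest siNT library, it kept the call. Leaving out siNT replicate 1 or 3 gave adjusted p-values of 0.11 and 0.12, and leaving out siLTBP2 replicate 1, 2 or 3 gave 0.098, 0.084 and 0.078.

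*KCNS3*, another modifying subunit and the highest of the class per kilobase, was at 12.1 ± 1.78 CPM in siNT against 13.5 ± 2.74 CPM in siLTBP2 (SD, n = 3). Its groups overlapped, and the 95% interval of the log2 fold change ran from -0.19 to 0.52. *KCNH3*, a brain-type channel of the ether-a-go-go family, stood at 0.195, 0.324 and 0.204 CPM in siNT and at 0.619, 0.740 and 0.323 CPM in siLTBP2. Its log2 fold change of 1.2 had an adjusted p of 0.056 (edgeR), and the groups overlapped by 1 library each. It passed 0.05 with the likelihood ratio test (0.019), with no filter on low counts (0.019), with the replicate number as a block (0.012) and without siLTBP2 replicate 3 (0.018). *KCNQ3* and *KCNQ5*, subunits of the slow muscarine-sensitive current, had log2 fold changes of 0.45 and 0.39 with adjusted p-values of 0.14 and 0.11 (edgeR). The remaining *KCNG1*, *KCNC4*, *KCND1* and *KCNH1* had log2 fold changes between 0.05 and 0.83. With 1 library left out, *KCNH1* turned negative in 3 of the 6 fits (at most to -0.23) and *KCNS3* in 1.

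The inward rectifiers, which pass potassium best near rest and stabilize the resting potential, had 3 members, and 0 were called by edgeR's quasi-likelihood test. At an unadjusted p below 0.05 there was 1, and the likelihood ratio test and DESeq2 each called 1. *KCNJ2*, the classical strong rectifier, stood at 7.78, 3.87 and 5.56 CPM in siNT and at 7.27, 6.75 and 7.32 CPM in siLTBP2. The siNT values spanned the siLTBP2 values, with an interval of the log2 fold change from -0.16 to 0.79. *KCNJ15* and *KCNJ14* had log2 fold changes of 0.69 and -0.38, with adjusted p-values of 0.068 and 0.29 (edgeR).

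Among the auxiliary potassium subunits, 3 of 8 were lower. *KCNAB2* (ENSG00000069424, chr1:5990927-6101193, plus strand, 16 exons), a cytoplasmic beta subunit with the fold of an oxidoreductase that binds voltage-gated pores, was at 34.5, 32.6 and 36.7 CPM in siNT and at 12.2, 14.5 and 10.8 CPM in siLTBP2. The libraries of each group lay close together and far from the other group. Its log2 fold change of -1.47 (SE 0.12) had an adjusted p of 5.48e-05 (edgeR), the smallest among the members. It shares 212 bases of exon with *NPHP4* on the opposite strand, which was at 13.9 CPM with a log2 fold change of 0.10. Exons of other members, lower ones among them, also overlap genes of the opposite strand, and whether counting used the strand is not given in the sources used here, so reads of such pairs may not be told apart.

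*KCNE1* (ENSG00000180509, chr21:34446688-34512214, minus strand), the single-span partner of the slow cardiac potassium channel, was at 1.95, 2.27 and 2.37 CPM in siNT and at 0.918, 1.06 and 0.664 CPM in siLTBP2. *KCNE1B* (ENSG00000276289, chr21:7816677-7829632, minus strand), a near-identical copy, was at 4.28, 4.50 and 3.76 CPM in siNT and at 1.31, 1.67 and 1.84 CPM in siLTBP2. Both fell, and neither overlapped between groups. The log2 fold changes were -1.32 (adjusted p = 0.0028) and -1.37 (adjusted p = 0.00073) by edgeR. The copies share 2658 windows of 50 bases, 76.9% of those of *KCNE1* and 84.5% of those of *KCNE1B*, so how reads were divided between them is uncertain. With the counts of both summed, an alternative added after the data were seen, the log2 fold change was -1.36.

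The other 5 auxiliary subunits were not called. *KCNE5* was lower in every siLTBP2 library, at 0.821 CPM in siNT against 0.501 CPM in siLTBP2, with an adjusted p of 0.12 (edgeR), and it shares 78 bases of exon with *ACSL4* on its own strand. *KCNE4*, *KCNMB3*, *KCNAB3* and *KCNIP2* had log2 fold changes between -0.33 and 0.01. *KCNMB3* overlaps *PIK3CA* on the opposite strand over 3403 bases of all its annotated exons, and *PIK3CA* was far higher at 78.4 CPM. Summed per kilobase, the 8 genes lay between 13.6 and 14.6 RPKM in siNT and between 7.14 and 7.61 RPKM in siLTBP2. The largest part was *KCNAB2*, at 8.28 RPKM in siNT against 2.99 RPKM in siLTBP2 on its canonical transcript. Over all its annotated exons it was at 2.01 RPKM in siNT.

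For voltage-gated calcium channels, the 2 pore subunits were not called by edgeR's quasi-likelihood test, while both the likelihood ratio test and DESeq2 called 1, as did an unadjusted p below 0.05. *CACNA1A*, the P/Q-type pore known from neurons, was at 32.4, 35.0 and 28.7 CPM in siNT and at 35.8, 32.0 and 27.9 CPM in siLTBP2. The groups overlapped fully, with an interval of the log2 fold change from -0.26 to 0.25. *CACNA1G*, a T-type pore that opens near rest, was higher in every siLTBP2 library, at 0.689 ± 0.258 CPM in siNT against 1.29 ± 0.15 CPM in siLTBP2 (SD, n = 3), with an adjusted p of 0.052 (edgeR).

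Of the 3 beta subunits of these channels, 2 fell. *CACNB3* (ENSG00000167535, chr12:48813794-48828941, plus strand) was at 68.3, 67.6 and 65.3 CPM in siNT and at 46.9, 51.7 and 40.5 CPM in siLTBP2. *CACNB1* (ENSG00000067191, chr17:39173453-39197702, minus strand), the beta subunit of skeletal muscle, was at 11.6, 13.5 and 11.2 CPM in siNT and at 8.90, 8.12 and 7.86 CPM in siLTBP2. Neither gene overlapped between groups, and both kept the call with each library left out. The log2 fold changes were -0.53 for *CACNB3* (SE 0.10, adjusted p = 0.0044) and -0.55 for *CACNB1* (SE 0.12, adjusted p = 0.011) by edgeR. *CACNB4* was near the count minimum, at 0.342 CPM in siNT against 0.345 CPM in siLTBP2, and its interval from -0.90 to 0.95 leaves no direction. Summed per kilobase, the beta subunits lay between 25.3 and 26.8 RPKM in siNT and between 16.0 and 19.9 RPKM in siLTBP2. Most of this was *CACNB3*, at 22.9 RPKM in siNT against 15.8 RPKM in siLTBP2.

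*CACNA2D1*, the alpha2delta subunit that binds gabapentin, was at 140, 117 and 116 CPM in siNT and at 152, 141 and 134 CPM in siLTBP2. The highest siNT library lay within the siLTBP2 range, and the log2 fold change of 0.20 had an adjusted p of 0.19 (edgeR).

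The TRP channels had 8 members, and *TRPV2* and *TRPM4* moved in opposite directions. *TRPV2* (ENSG00000187688, chr17:16415571-16437003, plus strand), a stretch- and heat-sensitive calcium-permeable channel, was at 92.9, 73.3 and 87.2 CPM in siNT and at 112, 113 and 105 CPM in siLTBP2. All siLTBP2 values were above the siNT values, and the log2 fold change was 0.38 (SE 0.10, adjusted p = 0.021, edgeR). The call was lost without siNT replicate 2, the lowest siNT library (adjusted p = 0.053), without siLTBP2 replicate 1 (0.064) and without siLTBP2 replicate 2 (0.09).

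*TRPM4* (ENSG00000130529, chr19:49157741-49211836, plus strand) is opened by internal calcium and passes sodium and potassium but no calcium. It was at 30.9, 31.3 and 28.1 CPM in siNT and at 23.1, 23.8 and 23.1 CPM in siLTBP2. Both groups were tight and apart, with a log2 fold change of -0.37 (SE 0.09, adjusted p = 0.018, edgeR). It lost the call without siNT replicate 1 (adjusted p = 0.062) or 2 (0.052) and without siLTBP2 replicate 1 (0.061) or 2 (0.056).

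*TRPC1*, a subunit that partners other TRPC subunits, was at 24.5 ± 2.22 CPM in siNT against 24.1 ± 1.93 CPM in siLTBP2 (SD, n = 3), with an interval of the log2 fold change from -0.26 to 0.21.

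*TRPM7*, a channel joined to a kinase that carries magnesium and calcium, was at 107, 107 and 128 CPM in siNT and at 124, 130 and 156 CPM in siLTBP2. The groups overlapped by 1 library each, and the log2 fold change of 0.26 had an adjusted p of 0.13 (edgeR). *TRPV4*, opened by swelling and stretch, was at 0.907 ± 0.349 CPM in siNT against 0.790 ± 0.413 CPM in siLTBP2 (SD, n = 3), too few counts to show a change of its interval's width, -1.08 to 0.66. *TRPM2*, opened by ADP-ribose, and *TRPV1*, the capsaicin receptor, had log2 fold changes of 0.12 and -0.59 with adjusted p-values of 0.69 and 0.20 (edgeR).

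The 3′ UTRs of the members were read for 1 word of 7 letters, GCACCCA, whose carriers were known to be lower as a group in these libraries. Among 12303 coding genes whose 3′ UTR had 50 bases or more in GENCODE 44, 11.8% held it, and the median log2 fold change was -0.15 in those and 0.02 in the rest. Of 40 members with such a 3′ UTR, 11 held it, or 27.5%. The median 3′ UTR was 1374 bases in these members and 1357 in all these coding genes. The word was in 3 of the 9 lower members (33.3%), in 0 of the 5 higher ones and in 8 of the 26 not called (30.8%). Because the word was known from these same libraries, this split is no independent test of it. The median 3′ UTR was 1740 bases in the lower members, 560 in the higher and 1374 in the uncalled ones, and longer 3′ UTRs have more places for a word. The sites of 2 of the lower carriers are printed with 10 bases on each side and the word in capitals, read 5′ to 3′ on the minus strand of GRCh38. They lie at chr2:47511595-47511621 and chr2:47519272-47519298 for *KCNK12* and chr21:34448469-34448495 for *KCNE1*.
KCNK12 site 1: tgttcaccgtGCACCCAtccctctccc
KCNK12 site 2: atgcgctcacGCACCCAgcattagagt
KCNE1: ctcctcccttGCACCCAtcctgcacac
Over all 40 members, the median log2 fold change was 0.02 in the 11 carriers, *CACNA2D1* and *TRPM7* among them, and -0.0058 in the others.

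Beyond the channels themselves, 43 of 54 genes of calcium handling were tested, with 7 higher and 4 lower. This was 25.6% of them, against 19.3% of all genes. The 2 plasma membrane calcium pumps called moved in opposite directions. *ATP2B1* was at 217, 175 and 226 CPM in siNT and at 313, 282 and 365 CPM in siLTBP2, while *ATP2B4* was at 556, 456 and 379 CPM in siNT and at 281, 282 and 223 CPM in siLTBP2. Their log2 fold changes were 0.64 (adjusted p = 0.0054) and -0.82 (adjusted p = 0.0031) by edgeR, with no overlap of the groups in either. *ITPR3*, a calcium release channel of the endoplasmic reticulum, rose by 0.66 on the log2 scale, *SLC8A1*, the sodium-calcium exchanger, by 0.41, and the stretch channel *PIEZO1* by 0.38.

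The called genes of the calcineurin branch were also divided. *PPP3CA*, a catalytic subunit of calcineurin, and *NFATC3*, a transcription factor that it activates, were higher, with log2 fold changes of 0.40 and 0.48. *RCAN2*, a calcineurin regulator, and *CALM3*, a calmodulin gene, were lower, with -0.90 and -0.60. Not called in the same branch were *PPP3CB*, *PPP3CC*, *PPP3R1*, *NFATC1*, *NFATC2*, *NFATC4*, *RCAN1* and *RCAN3*, with log2 fold changes between -0.62 and 0.25. Outside this branch, *TPCN1*, a lysosomal channel, was lower, with -0.53. *PKD2*, a cation channel of cilia and endoplasmic reticulum, was higher at 0.36. With single libraries left out, 9 of the 11 kept their call in every fit. *PIEZO1* lost it without siNT replicate 2 or 3 and without siLTBP2 replicate 1 or 2 (adjusted p at most 0.075), and *PKD2* lost it in every such fit but the one without siNT replicate 3 (at most 0.092). The summed list was level, between 5538 and 5980 CPM in siNT and between 5632 and 5776 CPM in siLTBP2.

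**Figure D4:**
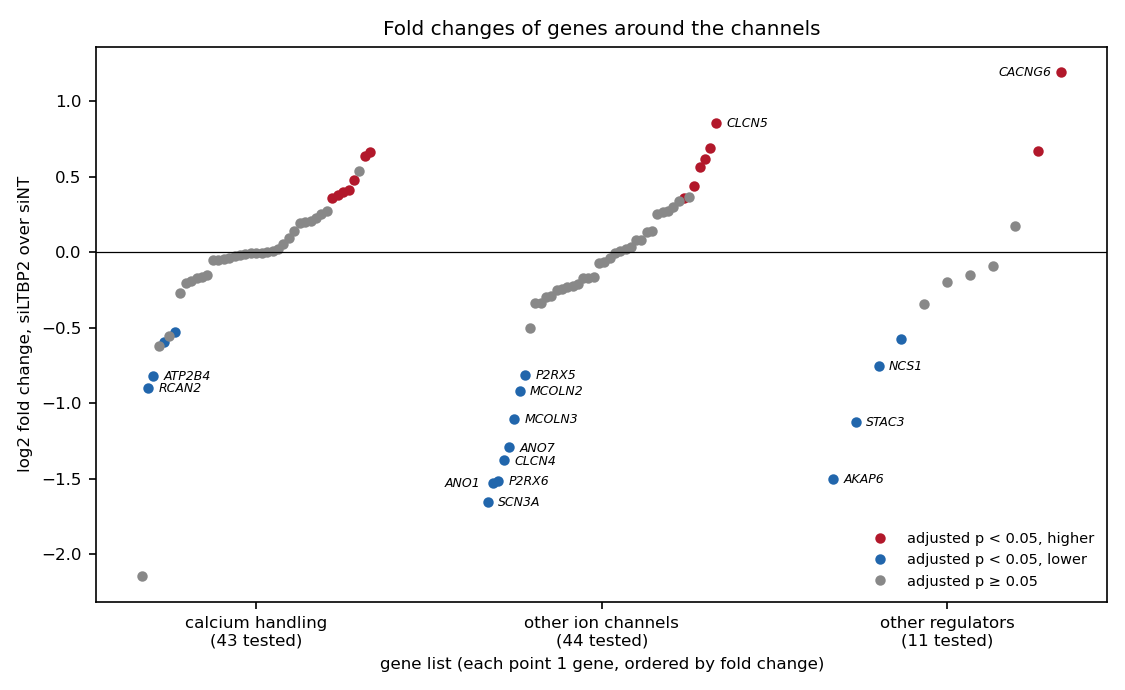
Log2 fold changes, siLTBP2 over siNT, of the tested genes of 3 lists around the channels, each point 1 gene ordered by fold change, with called genes coloured and those beyond 0.75 in size named. *AKAP6* at -1.50, *SCN3A* at -1.65 and *CACNG6* at 1.19 lie far from 0, and the lowest calcium handling gene, *RYR3* at -2.15, was not called (adjusted p = 0.052, edgeR).

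Of 72 other ion channel genes, 44 were tested, and 6 were higher and 8 lower, or 31.8%, against 19.3% of all genes tested. The sodium channels *SCN9A* and *SCN3A* went opposite ways. *SCN9A* was at 52.4, 50.7 and 50.4 CPM in siNT and at 80.3, 77.9 and 89.5 CPM in siLTBP2, a log2 fold change of 0.69 (adjusted p = 0.00041, edgeR). *SCN3A* was at 54.4, 38.5 and 27.8 CPM in siNT and at 18.1, 15.5 and 4.76 CPM in siLTBP2, and its libraries spread widely in both groups.

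Lower with it were the calcium-activated chloride channel *ANO1* (log2 fold change -1.53) and its relative *ANO7* (-1.29), the ATP-gated *P2RX6* (-1.51) and *P2RX5* (-0.81), the endosomal exchanger *CLCN4* (-1.38), and the endolysosomal cation channels *MCOLN3* (-1.10) and *MCOLN2* (-0.92). Higher were *CLCN5* (0.86), another endosomal exchanger, *ANO10* (0.62), *ANO6* (0.44), a lipid scramblase, *LRRC8C* (0.57), a subunit of the volume-regulated anion channel, and *CLIC1* (0.36). Of these 14 genes, 8 kept their call with each library left out. *SCN3A* and *P2RX6* lost it without siNT replicate 2 (adjusted p = 0.054 and 0.062), *P2RX5* without siNT replicate 3 or siLTBP2 replicate 2, and *ANO7* without siNT replicate 1 or siLTBP2 replicate 2. *CLIC1* lost it without siNT replicate 1 or 3 or siLTBP2 replicate 2, and *CLCN4* without siNT replicate 1 or any 1 of the siLTBP2 libraries. The highest adjusted p in these fits was 0.063 for *P2RX5*, 0.095 for *ANO7*, 0.11 for *CLIC1* and 0.14 for *CLCN4*.

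*ANO1* also stands in a list of 3 markers of interstitial cells of Cajal. Of the other two, *ETV1* was higher (log2 fold change 1.49) and *KIT* was at 1.05 CPM in siNT with an adjusted p of 0.10 (edgeR), so that the list's sum lay between 17 and 22.9 CPM in siNT and between 47.6 and 59.9 CPM in siLTBP2, nearly all of it *ETV1*.

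Partner proteins of the member channels were 30 genes, of which 11 were tested, 2 higher and 4 lower. This was 54.5% of the 11, against 19.3% of all genes tested. *AKAP6*, an anchor of protein kinase A known from muscle, was at 223, 162 and 200 CPM in siNT and at 74.6, 70.7 and 61.2 CPM in siLTBP2, a log2 fold change of -1.50 (adjusted p = 5.74e-05, edgeR). *NCS1*, a neuronal calcium sensor that also binds voltage-gated potassium channels, was at 158 ± 10.3 CPM in siNT against 93.6 ± 6.78 CPM in siLTBP2 (SD, n = 3). *CACNG6*, a gamma subunit of calcium channels, was higher at 2.91 ± 0.454 CPM against 1.27 ± 0.063 CPM in siNT (SD, n = 3). Of the 6 called, only these 3 kept their call with each library left out.

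*GEM*, a small GTPase that binds calcium channel beta subunits and lowers the current, had a log2 fold change of 0.67 and *STAC3*, a partner of the muscle calcium channel, one of -1.12. *GEM* lost its call without siNT replicate 1 or 2 (adjusted p at most 0.061), and *STAC3* in every such fit but the one without siLTBP2 replicate 1, and with DESeq2 and upper-quartile scaling. Summed, the list lay between 585.5 and 667.7 CPM in siNT and between 420.2 and 446.2 CPM in siLTBP2. Within it, *AKAP6* was at a mean of 195 CPM in siNT against 68.8 CPM in siLTBP2, and *NCS1* at 158 against 93.6 CPM.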

How the data were processed

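The 6 libraries, 3 siNT and 3 siLTBP2, were made from total RNA depleted of ribosomal RNA. Per the submitters' processing notes, reads were handled with STAR 2.7.1a and HTSeq 0.11.2 on GRCh38, and the authors deposited raw counts per gene without normalization. The annotation release and the strand setting are not given in the sources read here. The whole table of 60663 genes was filtered with filterByExpr, scaled by TMM and tested two-sided by glmQLFTest of edgeR 4.0.16 (R 4.3.3), with Benjamini-Hochberg adjustment. Alternatives were the likelihood ratio test of the study's methods, DESeq2 1.42.0, other scalings and filters, the replicate number as a block and leaving out each library. RPKM used the canonical transcripts of GENCODE 44, where 38 of the 41 members have the same start. Steps were tested on simulated data. Replicates differed beyond sampling noise (chi-square per degree of freedom 24.57 to 48.12). Members and lists were chosen with earlier results of these data known. Named genes were called members, the 10 highest per kilobase, 12 chosen ones and those at the count minimum, and of each list its called genes. Lists were calcium handling, other ion channels, other regulators, proliferation, and markers of fibroblasts, smooth muscle, neurons and glia, interstitial cells of Cajal, epithelium, endothelium and leukocytes. The values of a few listed genes are not reported here.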

Additional observations from a re-analysis of the deposited data

How the results depend on the processing

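Of the 41 members, 15 were called, and between 11 and 15 with 1 library left out. Other tests and scalings gave 15 to 18, and no filter 20. Of the 15 called members, 11 kept the call under every setting that gave a value, and *KCNMA1*, *TRPV2*, *TRPM4* and *KCNF1* lost it only with a library left out. With 1 CPM required in 3 libraries, 29 members were tested, 13 were called and 4 rather than 7 were deregulated. Whether the replicate numbers pair the libraries is undecided, and the values here are without a block. On log2 CPM with edgeR's default prior count, deviations from the group means correlated at 0.298, 0.083 and 0.428 for replicates 1 to 3, and siNT replicate 2 correlated best with siLTBP2 replicate 1 (0.103). On log2 of CPM plus 0.5 the same-number values were 0.44, 0.193 and 0.574, and each library correlated best with its own number. With the replicate block, 24 members were called, the 15 and 9 more (*CACNA1G*, *CACNA2D1*, *KCNG1*, *KCNH3*, *KCNJ2*, *KCNJ15*, *KCNQ3*, *KCNQ5* and *TRPM7*, all higher), as were 21 rather than 11 calcium handling genes, 25 rather than 14 other ion channels, and 6131 rather than 3261 of all genes. Between 3 (without siNT replicate 2) and 7 of the other regulators were called with 1 library left out, against 6. In 1 setting or more, 11 of the uncalled members changed sign, and with libraries left out these included *TRPC1* (-0.075 to 0.0497), *KCNS3* (-0.013 to 0.28), *CACNA1A* (-0.095 to 0.085), *TRPV4* (-0.70 to 0.089) and *CACNB4* (-0.35 to 0.27), the last also with total counts (-0.018), which moved the median of all genes most, to -0.044. Depth limits the members of few counts: 11 of the 41 were under 1 CPM in both groups.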
